A study of Mus musculus with 2 samples.

Results

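The mitochondrial carrier genes of the *Slc25* family were examined in ATAC-seq data from mouse liver. The Tn5 transposase used in ATAC-seq cuts open DNA and leaves sequencing adaptors there, so the number of reads on a region reports how accessible its chromatin was. The family was taken as every distinct region whose closest gene carries a symbol that starts with Slc25a and a number, which gave 120 of 69549 regions and 41 of the 27433 genes with a region. A region whose centre lay within 1000 bp of the transcription start site (TSS) was a promoter region, and the promoter region with the highest RPM (reads scaled to the size of the library) stood for its gene. This left 36 promoters and 9 further promoter regions of the same genes, and 75 regions of 26 genes lay farther away and were distal. *Slc25a18*, *Slc25a25*, *Slc25a31*, *Slc25a46* and *Slc25a53* had distal regions without a promoter region, and 12 of the 41 genes had a single region.

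Livers of C57BL/6 mice on normal chow were collected at 8 weeks of age. The control mice were *Mettl3* flox/flox, with no Cre, and the *Mettl3*-HKO mice were *Mettl3* flox/flox Alb-Cre+/-, so that both groups carried the floxed allele and the Cre, driven by the albumin promoter and thus active in hepatocytes, was present in the HKO mice alone. METTL3 is the catalytic subunit of the enzyme that writes the m6A mark on RNA. Each group was 1 library pooled from 4 mice, so there is no replicate check on any value here, no test was possible, and Cre itself and the loss of *Mettl3* cannot be told apart.

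Mitochondrial carriers sit in the inner mitochondrial membrane, which small polar metabolites do not cross on their own. Each carrier exchanges or imports a defined substrate, among them ADP for ATP, phosphate, citrate, malate, aspartate, glutamate, ornithine, acylcarnitine and cofactors such as coenzyme A and NAD+. In hepatocytes they join cytosolic and mitochondrial steps of the urea cycle, gluconeogenesis, fatty acid oxidation and lipogenesis. A few family members lie elsewhere, such as SLC25A17 in peroxisomes and SLC25A46 in the outer mitochondrial membrane.

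Promoter sequences are shown for the 3 carriers whose promoters stood highest and 3 of the 4 that stood lowest in the HKO library relative to promoters of like signal. Each line holds 300 bases from RefSeq on GRCm38.p6, from 250 bases before to 50 after the annotated start, written 5′ to 3′ on the strand of the gene. Capitals mark short motifs found on either strand, namely GGGCGG of Sp and KLF factors, the CCAAT box, the E-box CACGTG, the ETS motif CCGGAAG, the TGCGCA core of NRF1 sites and the cAMP response element TGACGTCA, and no 2 of these matches overlapped in the windows shown.
*Slc25a4* (chr8:46211013-46211312, minus strand): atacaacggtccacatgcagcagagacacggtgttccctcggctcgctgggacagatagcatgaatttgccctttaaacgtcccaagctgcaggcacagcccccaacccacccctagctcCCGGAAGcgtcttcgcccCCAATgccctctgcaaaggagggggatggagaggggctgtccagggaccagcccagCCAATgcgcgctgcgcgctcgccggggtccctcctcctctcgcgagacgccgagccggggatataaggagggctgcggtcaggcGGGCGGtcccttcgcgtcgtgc
*Slc25a36* (chr9:97110992-97111291, minus strand): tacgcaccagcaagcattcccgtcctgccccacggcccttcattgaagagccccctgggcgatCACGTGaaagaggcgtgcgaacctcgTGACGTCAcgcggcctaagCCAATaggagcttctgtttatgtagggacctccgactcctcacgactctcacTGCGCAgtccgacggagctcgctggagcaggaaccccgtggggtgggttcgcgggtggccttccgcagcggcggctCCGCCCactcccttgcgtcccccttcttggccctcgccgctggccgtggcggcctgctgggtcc
*Slc25a33* (chr4:149774218-149774517, minus strand): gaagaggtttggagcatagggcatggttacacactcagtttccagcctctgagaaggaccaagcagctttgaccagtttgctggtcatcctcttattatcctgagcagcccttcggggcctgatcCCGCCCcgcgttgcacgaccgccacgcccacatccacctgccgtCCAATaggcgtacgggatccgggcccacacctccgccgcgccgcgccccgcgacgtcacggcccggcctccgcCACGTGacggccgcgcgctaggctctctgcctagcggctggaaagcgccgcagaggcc
*Slc25a14* (chrX:48623328-48623627, plus strand): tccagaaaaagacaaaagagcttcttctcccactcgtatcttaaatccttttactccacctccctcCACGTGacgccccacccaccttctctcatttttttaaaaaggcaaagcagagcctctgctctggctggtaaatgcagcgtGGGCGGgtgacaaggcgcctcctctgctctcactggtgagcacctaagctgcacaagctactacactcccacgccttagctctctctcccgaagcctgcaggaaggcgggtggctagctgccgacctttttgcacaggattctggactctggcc
*Slc25a48* (chr13:56438105-56438404, plus strand): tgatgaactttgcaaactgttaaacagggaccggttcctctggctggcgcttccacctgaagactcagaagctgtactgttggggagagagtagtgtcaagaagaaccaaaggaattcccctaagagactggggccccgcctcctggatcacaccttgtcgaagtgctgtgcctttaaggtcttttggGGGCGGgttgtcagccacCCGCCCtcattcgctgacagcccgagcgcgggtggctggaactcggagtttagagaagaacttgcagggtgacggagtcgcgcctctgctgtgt
*Slc25a21* (chr12:57197423-57197722, minus strand): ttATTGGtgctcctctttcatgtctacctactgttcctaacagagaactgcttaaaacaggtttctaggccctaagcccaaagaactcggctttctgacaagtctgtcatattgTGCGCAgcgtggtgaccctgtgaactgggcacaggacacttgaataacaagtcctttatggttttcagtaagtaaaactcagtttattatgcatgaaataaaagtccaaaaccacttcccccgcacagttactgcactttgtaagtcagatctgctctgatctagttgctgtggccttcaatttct
The upper group, *Slc25a4* (an ADP/ATP translocase), *Slc25a36* and *Slc25a33* (both pyrimidine nucleotide carriers), held 25 to 30 CpG dinucleotides in the window and a CCAAT box in each. The lower group, *Slc25a14* (an uncoupling-like protein), *Slc25a48* (a less characterised member) and *Slc25a21* (the oxodicarboxylate carrier), held 10, 14 and 4 CpG dinucleotides. Of the 6 windows, TGACGTCA was found in *Slc25a36* alone and CCGGAAG in *Slc25a4* alone. E-boxes were found in *Slc25a36*, *Slc25a33* and *Slc25a14*, and *Slc25a21* also held a CCAAT box, so that the E-box and the CCAAT box occurred in both groups. A match is a stretch of letters and no evidence that a factor bound there.

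The library totals behind the RPM values were 52826202 reads for flox/flox and 58038305 for HKO, of which 31.7% and 22.3% lay in the listed regions. A log2 ratio here is HKO over flox/flox from raw counts, with 1 read added to each and scaled to these totals, so that -1 means 2-fold lower in HKO. The intervals given with ratios are at 95%, from the Clopper-Pearson method on the split of reads between the libraries, and they cover counting error only, as reads after PCR are not independent molecules. Over all regions the median log2 ratio was -0.38, and over the strongest 10% of promoters it was -0.65. Each *Slc25* promoter was therefore set beside the 1000 promoters of other genes nearest to it in mean RPM, and rescaling a library, which adds the same constant to every ratio, leaves the difference from their median as it is.

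Among the marker promoters, the 8 hepatocyte markers all had a region and summed to 74.7 RPM in flox/flox and 48.8 in HKO, with a median log2 ratio of -0.77. For endothelial markers 7 of 8 had a promoter region, summing to 3.03 and 7.01 RPM with a median of 1.60. Macrophage markers had 2 of 8 (1.04 and 1.96 RPM, median 1.29), cholangiocyte markers 5 of 8 (15.8 and 12.1 RPM, median -0.19) and lymphocyte markers none. Stellate markers had 3 of 8 with a median of 0.08, and their sum of 15.2 RPM in flox/flox and 5.44 in HKO is set by *Reln* (690 and 132 reads). Endothelial markers, at low levels, thus moved opposite to most carriers. Their part in the carrier ratios was not tested, and in whole liver fewer hepatocyte nuclei and less open chromatin per nucleus cannot be told apart. Nor can either be told apart from a lower yield of reads in regions in the single HKO library (22.3%, against 31.7% in flox/flox). The *Mettl3* promoter region itself had 566 reads in flox/flox and 392 in HKO, a log2 ratio of -0.66, and a start-site region does not check the deletion.

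Carrier promoters were well covered in both libraries. Per kilobase of region, the median level of the 36 promoters was 14.7 RPM in flox/flox and 8.87 in HKO, against 9.80 and 6.32 for the 13127 promoters of other genes, and 29 of 36 lay above the median of the others. On that scale *Slc25a47*, a carrier gene expressed mainly in liver, ranked first with 39.5 and 25.8 RPM per kilobase, followed by *Slc25a32* (folate and FAD) with 36.9 and 23.1 and *Slc25a15* (ornithine) with 35.3 and 21.97. *Slc25a36*, *Slc25a4* and *Slc25a24* ranked last, with 3.52, 2.63 and 2.41 RPM per kilobase in flox/flox. A peak was called in both libraries at 35 of the 36 promoters, beside 87.1% of other promoters, and in flox/flox alone (6.05% of other promoters) at *Slc25a22*, whose smaller region over the TSS had a peak in both.

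**Figure D1:**
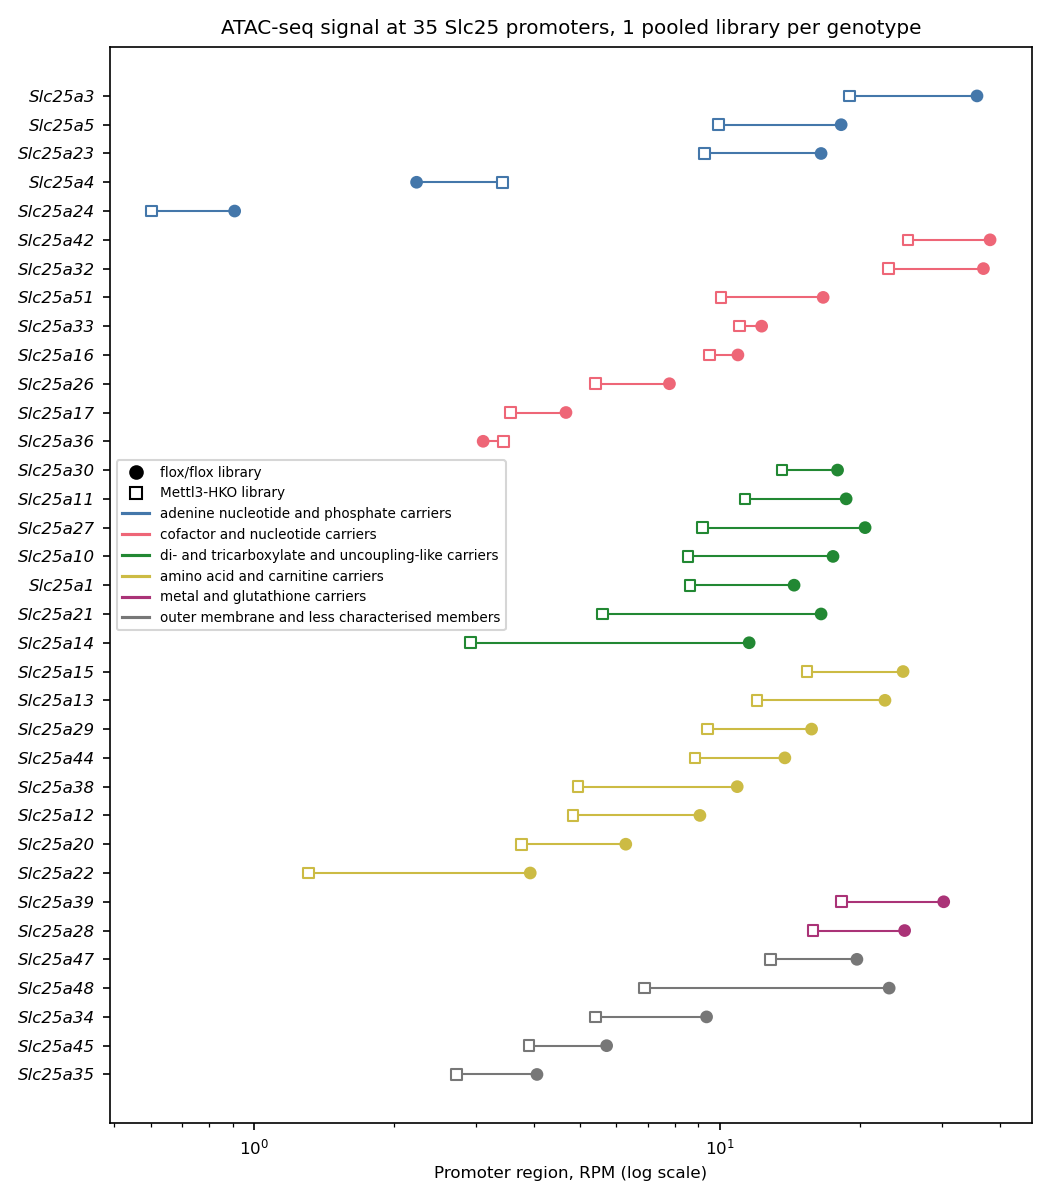
ATAC-seq signal of 35 *Slc25* promoter regions in RPM on a log axis, with filled circles for the flox/flox library, open squares for the HKO library and colours for role groups. The HKO square lies left of the circle for 33 genes and right of it for *Slc25a4* and *Slc25a36*, and signal runs from 0.603 RPM (*Slc25a24*, HKO) to 38.1 RPM (*Slc25a42*, flox/flox).

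Most carrier promoters had fewer reads in the HKO library. Their log2 ratios ran from -1.99 to 0.61 with a median of -0.72, beside -0.57 for the promoters of other genes. The counting interval lay wholly below 0 for 32 of 36, beside 74.3% of other promoters, above 0 for *Slc25a4*, beside 7.63%, and across 0 for *Slc25a24*, *Slc25a33* and *Slc25a36*. At least 2-fold lower were 7 of 36 (*Slc25a14*, *Slc25a48*, *Slc25a22*, *Slc25a21*, *Slc25a27*, *Slc25a38* and *Slc25a10*), beside 15.9% of other promoters, and 0 of 36 were at least 2-fold higher, beside 3.85%. The lower count depends on the scaling. *Slc25a14*, *Slc25a48*, *Slc25a22* and *Slc25a21* alone passed this limit when ratios were centred on the median of all regions (4 of 36, beside 4.59% of other promoters) or scaled to reads in regions (4 of 36, beside 2.88%), and *Slc25a14* and *Slc25a48* when centred on the strongest 10% of promoters (2 of 36, beside 1.78%). At least 2-fold higher were 0 of 36 (6.45% of other promoters) under the first of these scalings and *Slc25a4* under the other two (7.75% and 9.26%). The ratio was above 0 at 2 of 36, beside 15% of other promoters. Direction depends on the scaling for the mildest of them, as the number above 0 became 4, 6 and 14 under these scalings in the same order (32.6%, 44.3% and 58.8% of other promoters), and in each case the members' share stayed below that of other promoters.

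Against promoters of like signal the family lay slightly lower. The median difference was -0.09 on the log2 scale, 11 of 36 lay above the same-signal median beside 50.4% of other promoters, and 20 of 36 fell within the middle 50% of their same-signal promoters. At least 1.5-fold above were 2 of 36 (*Slc25a4* and *Slc25a36*), beside 10.9%, and at least 1.5-fold below were 4 of 36 (*Slc25a14*, *Slc25a22*, *Slc25a48* and *Slc25a21*), beside 11.7%. The intervals of 5 promoters lay above the same-signal median and those of 12 below it, while 19 included it, and among other promoters 28.6% lay above and 29.1% below. The share in either tail at the 1.5-fold limit was thus near or under the background, and the departure was mainly in the number of small negative differences. Unmatched for signal, the share at least 2-fold lower exceeded that of other promoters under each scaling, on 2 to 7 promoters.

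**Figure D2:**
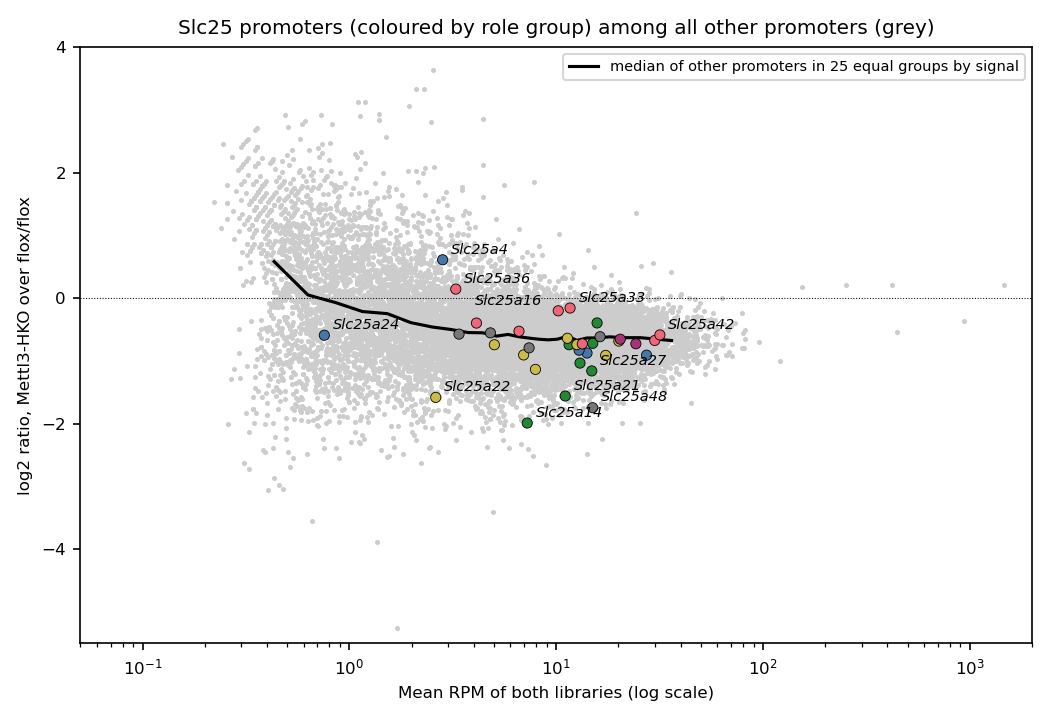
The log2 ratio of HKO over flox/flox (vertical axis) against mean RPM of both libraries (log axis) for the 13127 promoters of other genes in grey, with their median in 25 equal groups as a black line, and for 35 *Slc25* promoters coloured by role group. Ratios of weak promoters scatter more, and the carriers lie mostly at or slightly under the line, with *Slc25a4* at 0.61 above it and *Slc25a14* at -1.99 below it.

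Adenine nucleotide and phosphate carriers supply ADP and phosphate to ATP synthase and return ATP to the cytosol. The median log2 ratio of their 5 promoters was -0.83, and 4 of 5 lay below the same-signal median. Of other promoters 50.4% lay above it. *Slc25a5*, the broadly expressed ADP/ATP translocase, had 962 reads in flox/flox and 576 in HKO at chrX:36795382-36796608, where the centre lies in intron 1, for a log2 ratio of -0.87 (interval -1.03 to -0.73). *Slc25a4*, the isoform best known from heart and muscle, went the other way, with 117 reads in flox/flox and 197 in HKO at chr8:46210549-46211396, centred in exon 1, a log2 ratio of 0.61 (0.28 to 0.96). This was the highest ratio among the 36 promoters, on a weak region, and 947 of its 1000 same-signal promoters lay below it. The distal *Slc25a4* region, with 38 and 25 reads, had a ratio of -0.72 (-1.53 to 0.03). The *Slc25a4* ratio exceeded that of its paralogue *Slc25a5* by 1.49 (1.12 to 1.87), a 2.81-fold change in the balance of the promoters' reads, which no scaling alters. That contrast is between the strongest promoter regions, and the other *Slc25a5* regions were nearly level between the libraries. The smaller *Slc25a5* promoter region had 70 and 73 reads (-0.08, -0.57 to 0.42), and the distal *Slc25a5* region had 119 and 125 (-0.07, -0.44 to 0.31), which is 0.32 above distal regions of like signal. *Slc25a3*, the phosphate carrier, was strong in both libraries with 1884 and 1102 reads and a log2 ratio of -0.91. The calcium-regulated ATP-Mg/phosphate carriers *Slc25a23* (871 and 538 reads) and *Slc25a24* (47 and 34) had ratios of -0.83 and -0.59, and their difference of 0.23 had an interval from -0.47 to 0.92, too wide at this depth to order them. The *Slc25a23* region is centred upstream of the gene, and the smaller region over its TSS had 161 and 72 reads (-1.29, -1.72 to -0.89), with a peak in flox/flox alone.

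Cofactor and nucleotide carriers bring coenzyme A, S-adenosylmethionine, folate, NAD+ and pyrimidine nucleotides across the membrane. Of the 6 role groups this had the highest median difference from same-signal promoters, 0.09. Above the same-signal median were 7 of 9, beside 50.4% of other promoters, while the group's median log2 ratio was still -0.53. *Slc25a36* had 163 reads in flox/flox and 198 in HKO (log2 0.14, -0.16 to 0.45), and *Slc25a33*, which like it carries pyrimidine nucleotides, had 649 and 639 (-0.16, -0.32 to 0.002). *Slc25a16*, linked to coenzyme A uptake, had 577 and 551 reads (-0.20, -0.37 to -0.03). These promoters were close to level between the libraries, where those of like signal had medians of -0.51, -0.65 and -0.66, and 886, 955 and 931 of their 1000 same-signal promoters lay below them. The distal *Slc25a36* regions, with 73 and 47 reads (-0.76, -1.33 to -0.22) and 44 and 37 (-0.38, -1.06 to 0.28), lay below 0 at the library totals, unlike its promoter. Under each of the other scalings *Slc25a33* and *Slc25a16* lay above 0. The intervals of *Slc25a36* and *Slc25a33* overlap, and their difference was 0.30 (-0.04 to 0.65).

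*Slc25a42*, a coenzyme A carrier, had the most reads of all 36 promoters, 2010 in flox/flox and 1471 in HKO at chr8:70211751-70213374, and a log2 ratio of -0.59, close to the same-signal median. It lay 0.38 (0.19 to 0.58) below *Slc25a16*, a paralogous coenzyme A carrier. The interval covers counting error only, and the pair was chosen after the values were seen. *Slc25a32* (1945 and 1338 reads, -0.68) shares its region with the gene *Dcaf13*, to which the reads may equally belong. *Slc25a51*, the NAD+ carrier, had 880 and 583 reads (-0.73). *Slc25a26* (S-adenosylmethionine, the methyl donor that METTL3 uses) had 411 and 313 reads and *Slc25a17* 246 and 205, and their log2 ratios of -0.53 and -0.40 lay 0.09 and 0.16 above their same-signal medians.

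Di- and tricarboxylate carriers and uncoupling-like members had 4 of 7 promoters at least 2-fold lower at the library totals, beside 15.9% of other promoters, in a group too small to read more from the share, and under the other scalings *Slc25a27* and *Slc25a10* did not pass this limit. Their 7 promoters had the lowest median of the 6 role groups, -1.03. Of the 7, 6 lay below the same-signal median, where 50.4% of other promoters lay above it. *Slc25a14* had 610 reads in flox/flox and 168 in HKO at chrX:48623263-48624058, centred in the 5′ UTR, a log2 ratio of -1.99 (-2.25 to -1.75). The HKO level was 25.2% of the flox/flox level, the lowest of the 36, and 3 of 1000 same-signal promoters were lower. Its relative *Slc25a30*, another uncoupling-like carrier, had 945 and 789 reads (-0.40, -0.53 to -0.26) and lay 0.24 above same-signal promoters, so that the pair differed by -1.60 (-1.89 to -1.31) or 3.03-fold. *Slc25a21* had 871 and 324 reads at chr12:57196586-57197752, centred in exon 1 (-1.56, -1.75 to -1.38), with 15 of 1000 same-signal promoters lower. *Slc25a27*, also uncoupling-like, had 1083 and 532 reads (-1.16) on a region shared with *Cyp39a1*, an oxysterol hydroxylase gene of bile acid synthesis.

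The classical carriers of this group showed smaller differences. *Slc25a10*, the dicarboxylate carrier that exchanges malate or succinate for phosphate, had 924 and 495 reads (-1.03, -1.20 to -0.88), and 123 of 1000 same-signal promoters were lower. *Slc25a1*, the citrate carrier that exports citrate for fatty acid synthesis, had 762 and 500 (-0.74), and *Slc25a11*, the oxoglutarate/malate carrier, 986 and 657 (-0.72). Those of *Slc25a1* and *Slc25a11* lay within 0.10 of the same-signal median, and their intervals included it. The *Slc25a11* region also holds a RefSeq start of *Rnf167*, and those of *Slc25a15*, *Slc25a24*, *Slc25a28* and *Slc25a44* hold starts of the less characterised genes *1810012K16Rik*, *Gm19391*, *BC037704* and *Gm33513*, so these reads need not be the carriers' alone.

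Amino acid and carnitine carriers all lay below the same-signal median, 8 of 8. Of other promoters 50.4% lay above it, and of all 36 carriers 25 lay below. *Slc25a44* differed from it by only -0.003, and the group is too small to read more from the share. The median log2 ratio of the 8 was -0.82, and their median difference from the same-signal median -0.22. *Slc25a13* (citrin, the liver aspartate/glutamate carrier of the urea cycle and malate-aspartate shuttle) had 1195 reads in flox/flox and 697 in HKO (-0.91, -1.05 to -0.78). Its paralogue *Slc25a12* (aralar) had 478 and 280 (-0.91, -1.13 to -0.69), and the pair differed by 0.006 with an interval from -0.25 to 0.26. *Slc25a15*, the ornithine carrier of the urea cycle, had 1307 and 893 reads (-0.68), close to the same-signal median. *Slc25a20*, which brings acylcarnitines in for fatty acid oxidation, had 331 and 217 (-0.74), *Slc25a29* (basic amino acids) 831 and 546 (-0.74), and *Slc25a44* (branched-chain amino acids) 728 and 513 (-0.64). The intervals of these 4 include their same-signal medians.

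Lower within the same group were *Slc25a38* and *Slc25a22*. *Slc25a38*, the glycine carrier that serves haem synthesis, had 575 and 287 reads (-1.14, -1.35 to -0.93). *Slc25a22*, a glutamate carrier, had 206 and 75 reads (-1.58, -1.99 to -1.21) on a 271 bp region centred 886 bp upstream of the TSS, outside genes. The smaller region over the *Slc25a22* TSS itself had 185 and 91 reads (-1.15), so both promoter regions of this gene were at least 2-fold lower at the library totals. The 3 distal *Slc25a22* regions had ratios of -1.69, -1.68 and -1.32.

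Metal and glutathione carriers lay close to their background. *Slc25a28*, a mitochondrial iron importer, had 1317 and 919 reads (-0.65), and *Slc25a39*, which imports glutathione, had 1598 and 1060 (-0.73). Both intervals included the same-signal median. Among the less characterised members, *Slc25a47* had 1040 and 746 reads (-0.61), *Slc25a34* 494 and 313 (-0.79), *Slc25a45* 301 and 225 (-0.55) and *Slc25a35* 213 and 157 (-0.57), and these intervals also included the same-signal median. *Slc25a48* stood apart from them with 1220 reads in flox/flox and 399 in HKO at chr13:56438182-56439261, centred in intron 1, a log2 ratio of -1.75 (-1.92 to -1.58), and 3 of 1000 same-signal promoters were lower.

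**Figure D3:**
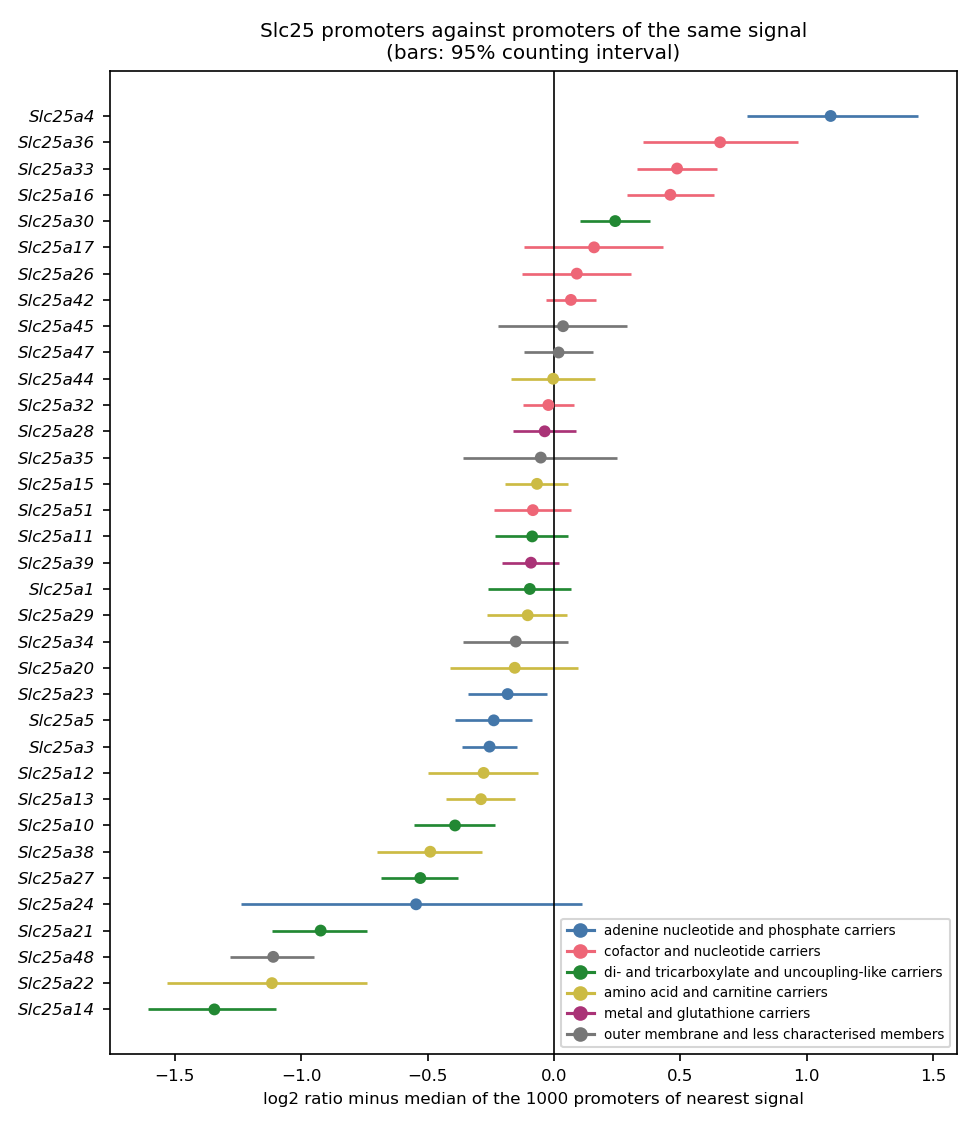
Difference of the log2 ratio of 35 *Slc25* promoters from the median of the 1000 other promoters nearest in mean RPM, with points for the difference, bars for the 95% counting interval and colours for role groups. Values run from -1.34 (*Slc25a14*) to 1.09 (*Slc25a4*), with 10 points right of 0 and 25 left of it, and 6 of the 10 are cofactor and nucleotide carriers.

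Sequence features were compared in the 26 carrier promoters whose RefSeq window overlapped the open region, beside 7528 other open promoters and all 32841 windows of the table. GGGCGG occurred in 22 of 26 (84.6%, against 68.6% of open promoters and 35.7% of all windows) and CCAAT in 15 (57.7%, against 39.1% and 37.4%). The E-box CACGTG occurred in 6 (23.1%, against 10.8% and 7.15%), in *Slc25a1*, *Slc25a13*, *Slc25a14*, *Slc25a15*, *Slc25a33* and *Slc25a36*. Their log2 ratios ran from -1.99 to 0.14, where those of the family ran from -1.99 to 0.61. CCGGAAG occurred in 5 (19.2%, against 18.5% and 8.86%), TGCGCA in 3 (11.5%, against 15.3% and 7.76%), and TGACGTCA and the YY1 motif AAGATGGCG in 1 each (3.85%, against 3.52% and 3.35% of open promoters). The TATA box TATAAA was found in none of the 26 windows, against 6.39% and 13.6%. Both strands were searched, and all of these motifs but the CCAAT box and the TATA box contain a CpG, so their shares are not independent of base composition.

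Base composition of the carriers was that of open promoters at large, with a median GC content of 62.3% (61.7% in other open promoters, 52.7% in all windows) and 21.5 CpG dinucleotides (22 and 7). Within the family, promoters with more CpG lay higher against same-signal promoters (Spearman's rho 0.49 over 26 promoters), while over the 7528 other promoters rho was 0.015. These points come from the same 2 libraries, and the coefficient is given as a description.

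Distal carrier regions were lower in HKO more often than they were higher at the library totals. The median log2 ratio of the 75 was -0.63 (range -2.19 to 2.26), beside -0.27 for 55087 other distal regions, and against distal regions of like signal the median difference was -0.25, with 29 above and 46 below. The shares that follow are not matched for signal, and carrier distal regions were stronger, with a median of 2.46 RPM in flox/flox against 1.27. At least 2-fold lower were 20 of 75, beside 18.8%, and 1 of 75 was at least 2-fold higher, beside 15.7%. This imbalance depends on the scaling, with 10 lower (8.64% of other distal regions) and 6 higher (23.5%) when centred on the median of all regions. Scaled to reads in regions 6 were lower (6.42%) and 7 higher (26.7%), and centred on the strongest promoters 6 were lower (4.58%) and 8 higher (30.4%), so that the higher ones were then the more numerous. Of the 43 distal regions in the upper 50% of mean signal, 0 were at least 2-fold higher at the library totals, beside 4.96%. The ratio was above 0 at 14 of 75, beside 40.2%, and this number became 25, 28 and 39 (54.3%, 60.2% and 66.7% of other distal regions) under the other scalings. A peak was called in flox/flox alone at 17 of 75, beside 19.1%, and in HKO alone at 9 of 75, beside 24.9%. The 36 regions inside the carrier gene had a median of -0.77, and the 39 elsewhere -0.61.

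**Figure D4:**
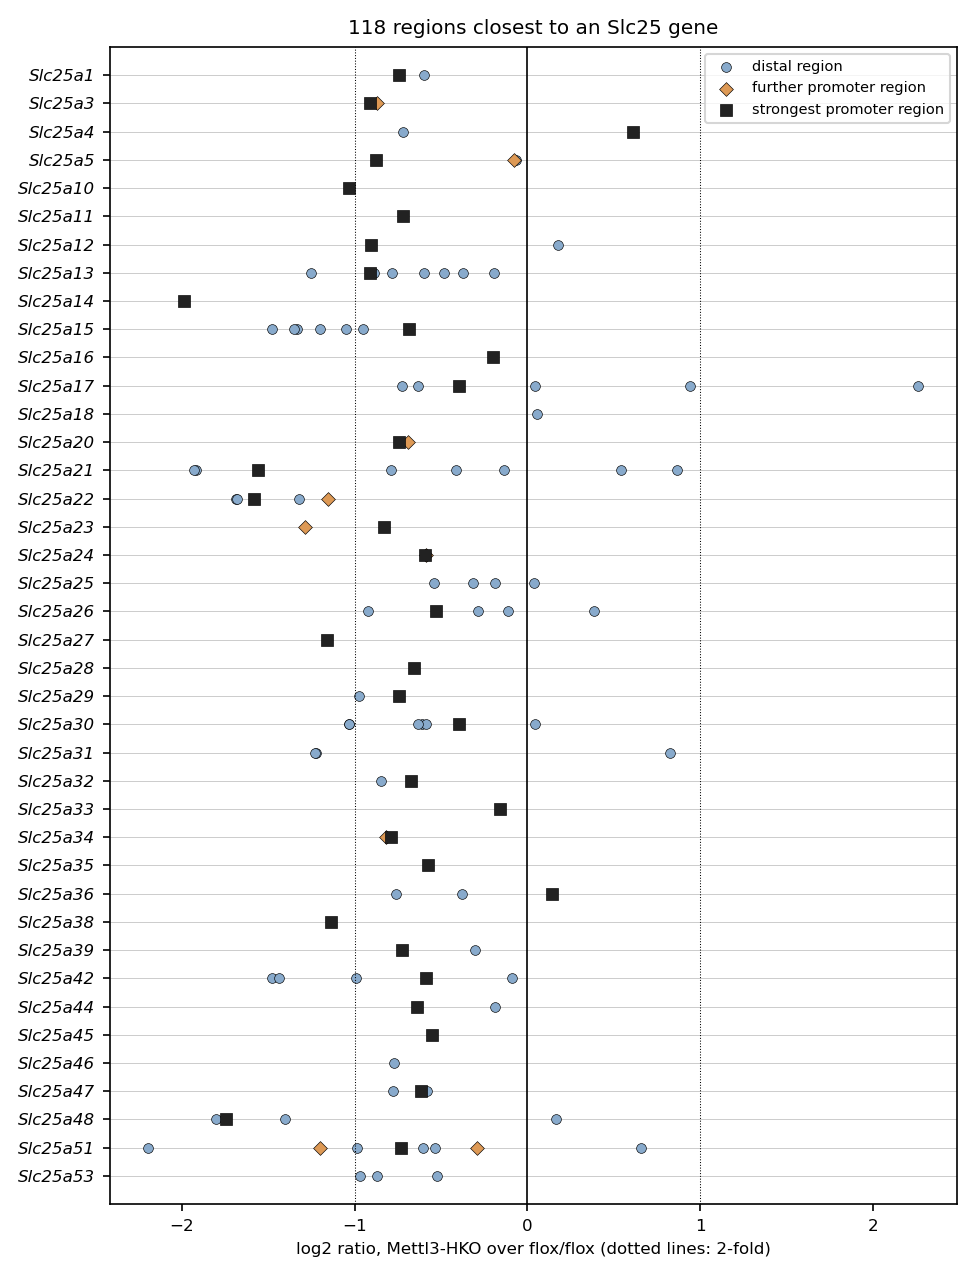
The log2 ratio of HKO over flox/flox for 118 regions by closest gene, with black squares for the promoter region that stands for the gene, orange diamonds for further promoter regions, blue circles for distal regions and dotted lines at 2-fold. Regions of *Slc25a15* and *Slc25a22* all lie left of 0, and the *Slc25a17* region at 2.26 is the only one right of the upper 2-fold line.

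The lowest distal region lay 3673 bp upstream of *Slc25a51* at chr4:45412306-45412574, outside genes, with 278 reads in flox/flox and 66 in HKO, a log2 ratio of -2.19 (-2.62 to -1.82). The next lay at *Slc25a21*, at chr12:57211414-57212317 outside genes with 280 and 80 reads (-1.93) and in intron 1 at chr12:56951656-56952679 with 236 and 68 (-1.92). At *Slc25a21* the promoter and its strongest distal regions were thus low together, while 2 weak intron 1 regions with 49 and 79 reads, and 14 and 29, had ratios of 0.54 and 0.86. *Slc25a48* had a similar pattern, with 224 and 70 reads in intron 3 (-1.80) and 365 and 151 reads 3765 bp upstream (-1.40), beside a weak intron 2 region with 51 and 63 (0.16).

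The highest distal region had 21 reads in flox/flox and 115 in HKO at chr15:81300531-81300996, a log2 ratio of 2.26 (1.64 to 3.06), with a peak in HKO alone. It lies 60002 bp from the *Slc25a17* TSS and outside genes, and *Slc25a17* is merely the closest gene. Its neighbour, the next highest, 59402 bp from that TSS had 36 and 77 reads (0.94, 0.37 to 1.57). Both had few reads in flox/flox.

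Regions around 2 urea cycle carriers, *Slc25a15* and *Slc25a13*, were lower in HKO at the library totals, as most regions were. Ratios were above 0 at 15% of other promoters and 40.2% of other distal regions there. Centred on the strongest promoters, these shares were 58.8% and 66.7%. The 5 *Slc25a22* regions were likewise below 0 under each scaling tried, so the pattern is not particular to urea cycle carriers. All 7 *Slc25a15* regions were below 0 under each scaling tried, from -1.48 to -0.68 at the library totals, among them 713 and 405 reads (-0.95) and 495 and 213 reads (-1.35) in intron 2, while 3 of the distal ones lie in introns of *Tpte* and are assigned by distance only. All 8 *Slc25a13* regions were below 0, from -1.25 to -0.20, and of these 2 lay above 0 when centred on the median of all regions, 3 when scaled to reads in regions and 4 when centred on the strongest promoters. The region 2797 bp upstream of *Slc25a13* had 1160 and 688 reads (-0.89), almost the ratio of its promoter, and the intron 2 region had 859 and 676 (-0.48). Against distal regions of like signal these differed by -0.21 and 0.22, so they lay on both sides. At *Slc25a42*, whose promoter lay near the background, the distal regions 18783 and 8564 bp away had 549 and 216 reads (-1.48) and 657 and 266 reads (-1.44), the latter at the 3′ UTR of *Armc6*. The other two *Slc25a42* distal regions had 243 and 134 reads (-0.99, -1.31 to -0.68) and 126 and 130 (-0.09, -0.46 to 0.27).

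*Slc25a47* has a region centred 1020 bp upstream of its TSS, just outside the promoter limit, with 2482 reads in flox/flox and 1592 in HKO (-0.78, -0.87 to -0.69), the most reads of all 120 regions. Just inside the limit lay the *Slc25a22* region at 886 bp, an *Slc25a5* region at 899 bp with 70 and 73 reads and an *Slc25a51* region at 978 bp with 156 and 140. *Slc25a30* had 6 distal regions, from -1.03 to 0.04, and the 7 *Slc25a51* regions besides its promoter ran from -2.19 to 0.66. Over the 21 genes with both kinds, the promoter ratio and that of the strongest distal region had a Spearman's rho of 0.34, beside 0.29 over 7302 other genes, with each pair of values taken from the same libraries.

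The carriers without a promoter region by the table's TSS were not all without an open start. For *Slc25a25*, a calcium-regulated ATP-Mg/phosphate carrier, the region at chr2:32423795-32424632 holds a RefSeq start of the gene and had 1107 and 1068 reads (-0.19, -0.31 to -0.06). For *Slc25a53* the region at chrX:137037717-137038534 holds a RefSeq start and had 561 and 429 reads (-0.52). *Slc25a18*, a second glutamate carrier, had 48 and 55 reads in its intron 1 (0.06), and the *Slc25a46* region had 167 and 107 (-0.77). The 3 regions closest to *Slc25a31*, a testis ADP/ATP translocase, overlap *Intu*, and the strongest had 1104 and 517 reads (-1.23).

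Genes that work with the carriers were described in the same way. Of 30 such genes 22 had a promoter region, with a median log2 ratio of -0.57 and 10 of 22 above the same-signal median, beside 50.4% of the promoters outside the *Slc25* family. At least 2-fold lower were *Timm22* (285 and 149 reads) and *Mtch1* (640 and 351 reads), thus 2 of 22 beside 15.9%, and 0 of 22 were at least 2-fold higher, beside 3.85%. Under each of the other scalings *Timm22* and *Mtch1* did not pass the lower limit and *Ucp2* passed the higher one, as did *Sfxn1* (49 and 73 reads) when centred on the strongest promoters. The malate-aspartate shuttle enzymes, partners of *Slc25a11*, *Slc25a12* and *Slc25a13*, had *Got1* at 1212 and 751 reads (-0.83), *Got2* at 1151 and 723 (-0.81), *Mdh1* at 1557 and 964 (-0.83) and *Mdh2* at 896 and 765 (-0.36). The first 3 of these lay near the ratio of both aspartate/glutamate carriers. *Ucp2*, an uncoupling protein of the same family under another symbol, had 87 and 154 reads (0.68, 0.30 to 1.08), so that like *Slc25a4* it had a weak promoter that was higher in HKO. *Mpc2* of the pyruvate carrier had 3284 and 2811 reads (-0.36) and *Mpc1* 2167 and 1543 (-0.63). The medians of the lists were -0.82 for the shuttle enzymes (4 of 4 with a promoter region), -0.63 for the pyruvate carrier and outer membrane channels (3 of 5), -0.52 for the TIM22 import route (3 of 6), -0.50 for sideroflexins (5 of 5), -0.45 for the calcium uniporter (5 of 5) and -0.16 for family members under other symbols (2 of 5).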

How the data were processed

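ATAC-seq was analysed for 1 *Mettl3* flox/flox and 1 *Mettl3*-HKO liver library, grouped by the sample labels. The authors trimmed adaptors with skewer, aligned reads with BWA to GRCm38, dropped mitochondrial, unpaired and poorly mapped reads, and ran MACS2 on each library without removing duplicates. The counting of reads on merged regions and any shift of read ends to the Tn5 cut site are not given in the sources used here. The authors deposited for each region a raw count and an RPM value per library, whether a peak was called there, and how far its centre lies from the nearest TSS. The RPM value equals the count plus 1 over a library total recovered from it. Their column of log2 fold changes holds the authors' own comparison and was not used. Of 74821 rows, 5272 repeats of a region were dropped, and starts were converted to count from 1.

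Genes named in full are the 5 highest and 5 lowest promoters against same-signal promoters, the 6 with the largest summed RPM, those with a peak in 1 library, carriers of known liver roles, and the 3 highest and lowest distal regions, except that the values of 1 family gene are counted in the summaries and not reported here. Members, role groups, partner genes and markers were chosen with earlier results of these data known, and the paralogue pairs after the values were seen. RefSeq lists 48 family genes on GRCm38.p6, of which 7 are not the closest gene of any region. The table of promoter windows matched 26 of the 36 carrier promoters. Ratios and intervals were tested on simulated independent Poisson counts, which hold no PCR duplicates. The same-signal median was tested on a noise-free trend with signal. Alternatives changed the scaling, the added count, the signal filter, the promoter window, the value per gene and the comparison set. Analyses ran in Python 3.11.15 (scipy 1.17.1, numpy 2.4.6, pandas 2.3.3), and plots were drawn with matplotlib 3.10.9.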

Additional observations from a re-analysis of the deposited data

How the results depend on the processing

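Scaling moved the ratios most, by 0.38, 0.51 and 0.65 on the log2 scale. Centred on the median of all regions, the median promoter ratio was -0.35 with 4 promoters at least 2-fold lower (4.59% of other promoters), and the distal median was -0.25 with 10 lower (8.64% of other distal regions) and 6 higher (23.5%). Scaled to the reads in regions, the values were -0.21 with 4 lower (2.88%) and 1 higher (7.75%), and -0.12 with 6 lower (6.42%) and 7 higher (26.7%). Centred on the strongest 10% of promoters, they were -0.070 with 2 lower (1.78%) and 1 higher (9.26%), and 0.024 with 6 lower (4.58%) and 8 higher (30.4%), so the sign of the distal median turned there. These scalings add 1 constant to every ratio. In the upper 50% of mean signal 43 distal regions were left, with 0 at least 2-fold higher, beside 4.96%. Adding 10 reads, promoter windows of 500 and 2000 bp, summing promoter regions, 200 nearest promoters and nearness in flox/flox RPM kept each median they apply to between the medians of the members' lower and upper interval bounds and each count within 1.5 times, with 10 to 13 promoters above the same-signal median. The same held, in an alternative added after seeing the data, for the 26 promoters with a RefSeq start inside the region, of which 8 lay above it. Of 183 alternative ratios for 23 named carriers, 68 left their counting interval. No paired analysis was possible because each group has 1 library. The weakest promoter, *Slc25a24*, had 47 and 34 reads and its ratio is the least certain.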

Other observations

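Of the 7 family genes that are not the closest gene of any region, *Slc25a40*, a second glutathione carrier, shares its start with *Dbf4*, and the region there at chr5:8422188-8423226 had 1675 reads in flox/flox and 909 in HKO, a log2 ratio of -1.02 (-1.14 to -0.90). The table assigns the reads of such a shared region to a single gene. Inside *Slc25a37*, a mitochondrial iron importer of red cell precursors, 1 region had 390 and 223 reads (-0.94, -1.19 to -0.70) and another 15 and 42 (1.29, 0.47 to 2.31). *Slc25a43* overlapped a region with 125 and 67 reads (-1.03) and another with 133 in each library (-0.14). No listed region overlapped *Slc25a2*, *Slc25a41*, *Slc25a54* or *Slc25a5-ps*.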
